A study of Mus musculus with 5 samples.

Results

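Prok2 encodes prokineticin 2 (Bv8) and was followed as 1 of the 32285 genes counted in single neutrophils of mice with and without AT3 tumours. It was chosen by its symbol, and its transcripts were counted in 10193 of 10828 called cell barcodes from AT3-gcsf tumour-bearing mice, 7634 of 7840 from AT3 tumour-bearing mice and 7406 of 7738 from naive mice. These were the cells whose leading hashtag held at least 80% and at least 20 of their hashtag counts. Prokineticins are small secreted peptides with a conserved AVIT amino-terminal motif, and they act through the G-protein-coupled receptors Prokr1 and Prokr2. In myeloid cells Prok2 is known as a gene induced by granulocyte colony-stimulating factor (G-CSF) through Stat3. The peptide is known to promote blood vessel growth and to attract myeloid cells.

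All animals were wild-type female C57BL/6J mice by their labels, and none carried a named transgene. AT3 is a mouse mammary carcinoma line, and AT3-gcsf is by its name a form of it tied to G-CSF; the level of G-CSF in the mice was not among the measurements used here. Neutrophils had been sorted from bone marrow, peripheral blood and lung, so none of these cells came from a tumour itself. Per the labels, samples received hashtag antibodies, and about 8000 cells of each tagged sample were pooled into 1 lane of about 24000 cells. The labels do not say which tissue carried which tag, and populations are therefore named by tag: MHTO3, MHTO4 and MHTO5 in AT3-gcsf, MHTO7, MHTO8 and MHTO10 in AT3, and MHTO3, MHTO4 and MHTO5 in naive. Nothing in the labels says that the same tag number in different libraries marks the same tissue.

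Each condition was 1 library, so there was no spread between replicates and no test between conditions. Condition and lane cannot be told apart. The cells used held 90208108 unique molecular identifiers (UMIs, counted transcripts) in AT3-gcsf, 52187262 in AT3 and 29668871 in naive, with medians of 7575, 4789.5 and 2776 per cell in that order. Levels are given as CPM, UMI counts scaled to a common total. All 10 neutrophil markers reached 20 CPM in each of the 9 populations. The lung epithelium list summed to between 22.8 and 2344 CPM in AT3-gcsf populations, between 75.2 and 7364 in AT3 and between 218 and 11523 in naive. Erythroid markers summed to 0.410 CPM in AT3-gcsf, 326 in AT3 and 1673 in naive, platelet markers to 1.66, 4.08 and 54.8, and macrophage, monocyte and dendritic cell markers to 37.7, 86.3 and 447. These sums run against the order of Prok2, and the part of erythroid and platelet RNA in the results was not tested. Between 20 and 44 barcodes were shared by a pair of libraries. Intervals in the text are 95%, exact, and cover counting error only.

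Prok2 lies on mouse chromosome 6 from 99711299 to 99726392 on the minus strand (ENSMUSG00000030069, GRCm38, GENCODE vM21) and has 4 annotated transcripts. The sequence just before its start is shown because the gene is the member described throughout and its promoter is where the factors tied to its induction would be looked for. The 250 bases before the start (chr6:99726393-99726642, minus strand, from RefSeq on GRCm38.p6) read 5′ to 3′ as follows, with an E-box (CACGTG) and an AP-1 motif (TGAGTCA) in capitals.
Prok2 promoter: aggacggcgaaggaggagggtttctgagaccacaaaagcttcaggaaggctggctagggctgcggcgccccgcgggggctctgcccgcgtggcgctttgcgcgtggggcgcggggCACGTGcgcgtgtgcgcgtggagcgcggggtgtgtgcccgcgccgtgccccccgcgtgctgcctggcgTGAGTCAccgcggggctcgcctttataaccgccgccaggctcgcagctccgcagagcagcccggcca
The E-box began 135 bases before the start, and 6.02% of 32851 mouse promoter windows of the same length held one. The AP-1 motif, searched as TGAGTCA or TGACTCA, began 67 bases before the start, and 4.46% of windows held one. The spaced STAT motif TTCNNNGAA, its own reverse complement, had 0 matches here and was held by 7.02% of windows. Both strands were searched, the capitals overlap no other motif searched, and a match or its absence says only which letters stand in this window.

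Prok2 was abundant in neutrophils of both tumour-bearing groups and rare in naive neutrophils. The AT3-gcsf library held 130926 Prok2 UMIs, or 1451 CPM (1444 to 1459). The AT3 library held 29263, or 561 CPM (554 to 567). The naive library held 643, or 21.7 CPM (20 to 23.4). The intervals of the 3 libraries were far apart. On the scale of UMIs per cell, with no scaling to the library total, the means were 12.8 in AT3-gcsf, 3.83 in AT3 and 0.0868 in naive cells.

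The AT3 over naive log2 ratio, with 5 CPM added to both values, was 4.41, a 25.9-fold difference in CPM, and it was the highest of the 4244 genes that reached 20 CPM in either library. Of those genes 74, or 1.74%, were higher in AT3 by 2-fold or more, and 277 (6.53%) were lower by as much. Igfbp6, an insulin-like growth factor binding protein, and Wfdc17, a secreted protein of the whey acidic protein family, followed at 4.29 and 4.23. The AT3-gcsf over naive log2 ratio was 5.77, or 67.0-fold, the second highest of 4346 genes after the acute-phase gene Saa3 at 8.65. There 175 genes, or 4.03%, were higher by 2-fold or more and 931 (21.4%) lower by as much. Both comparisons share the naive library. The list of 18 suppressor-associated genes was made with earlier results of these data known, and 16 were measured for AT3-gcsf over naive. Saa3, Wfdc17, Ifitm1, Igfbp6 and Nos2 were higher by 2-fold or more and Ptgs2, Cd274 and Ngp were lower. Naive Ngp lay mostly in MHTO4 (22913 CPM), and naive MHTO3 (1264) and MHTO5 (694) were below every AT3-gcsf population (2162 to 3871). Naive Ptgs2 and Cd274 lay mostly in MHTO5 (858 and 159 CPM), and MHTO4 held 7.56 and 4.26. Of 15 measured for AT3 over naive, Saa3, Wfdc17, Ifitm1 and Igfbp6 were higher and 0 were lower. Saa3 did not separate there, with 6.65 CPM in AT3 MHTO7 against 8.63 in naive MHTO3.

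The AT3-gcsf over AT3 log2 ratio was 1.36, or 2.59-fold, which ranked 34 of 3670 genes. There 69 genes, or 1.88%, were higher by 2-fold or more and 126 (3.43%) lower by as much. The counts of higher and lower genes depended on the scaling. With edgeR's TMM factors they became 200 higher and 42 lower for AT3 over naive, 766 and 179 for AT3-gcsf over naive, and 134 and 69 for AT3-gcsf over AT3. That scaling moved the median of all genes by 0.54, 0.80 and 0.28 on the log2 scale in those comparisons, and Prok2 then stood at 4.90, 6.56 and 1.66. Without cells that had 1% or more of their UMIs from markers of lymphocytes, lung epithelium, macrophages, monocytes or dendritic cells, Prok2 stood at 4.39, 5.74 and 1.35.

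The order of the conditions held in each tagged population. In AT3-gcsf cells Prok2 stood at 1477 CPM in MHTO3, 1493 in MHTO4 and 1399.6 in MHTO5. In AT3 cells it stood at 641 CPM in MHTO7, 536 in MHTO8 and 444 in MHTO10. In naive cells it stood at 24.1 CPM in MHTO3, 30.3 in MHTO4 and 6.43 in MHTO5. The AT3-gcsf populations lay close together, the AT3 populations were more spread, and no population of one condition overlapped those of another. Every AT3 population was above every naive population for 2.21% of genes tested, every AT3-gcsf population above every naive one for 7.55%, and every AT3-gcsf population above every AT3 one for 11.0%. Along the order of all 9 populations, neighbouring intervals overlapped for AT3-gcsf MHTO4 and MHTO3, and for naive MHTO4 and MHTO3, and for no other pair of neighbours.

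**Figure D1:**
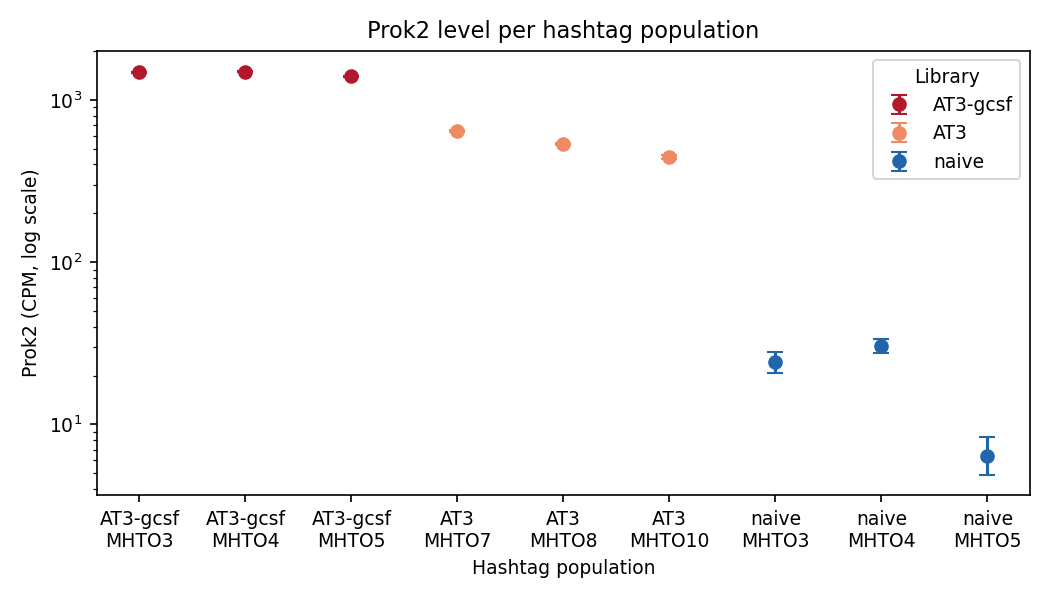
Prok2 level (CPM, log axis) in each hashtag population, with points for the summed cells of 1 population and bars for the 95% exact Poisson interval, which covers counting error only. The AT3-gcsf populations sit between 1399.6 and 1493 CPM, the AT3 populations between 444 and 641, and the naive populations between 6.43 and 30.3.

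The difference between conditions lay in the share of cells with Prok2 and in the amount per positive cell. At least 1 Prok2 UMI was counted in 71.5% of AT3-gcsf cells (70.7 to 72.4), 45.1% of AT3 cells (44.0 to 46.2) and 4.79% of naive cells (4.32 to 5.30). Since depth differed, cells were also thinned at random to 2000 UMIs each, which left out 171, 286 and 1440 shallower cells in the same order. The thinned shares were 56.6% in AT3-gcsf, 32.2% in AT3 and 2.41% in naive. Both ways of counting gave the same order.

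By population, the thinned share was 57.2% in MHTO3, 55.0% in MHTO4 and 57.6% in MHTO5 of AT3-gcsf. It was 47.7% in MHTO7, 27.7% in MHTO8 and 25.1% in MHTO10 of AT3. It was 1.12% in MHTO3, 5.78% in MHTO4 and 0.424% in MHTO5 of naive. The unthinned shares were 71.9%, 68.0% and 74.7% in those AT3-gcsf populations, 69.0%, 40.2% and 32.3% in the AT3 ones and 1.02%, 14.3% and 0.826% in the naive ones. AT3 MHTO7 thus stood nearer to AT3-gcsf in its share of positive cells than the other AT3 populations did.

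**Figure D2:**
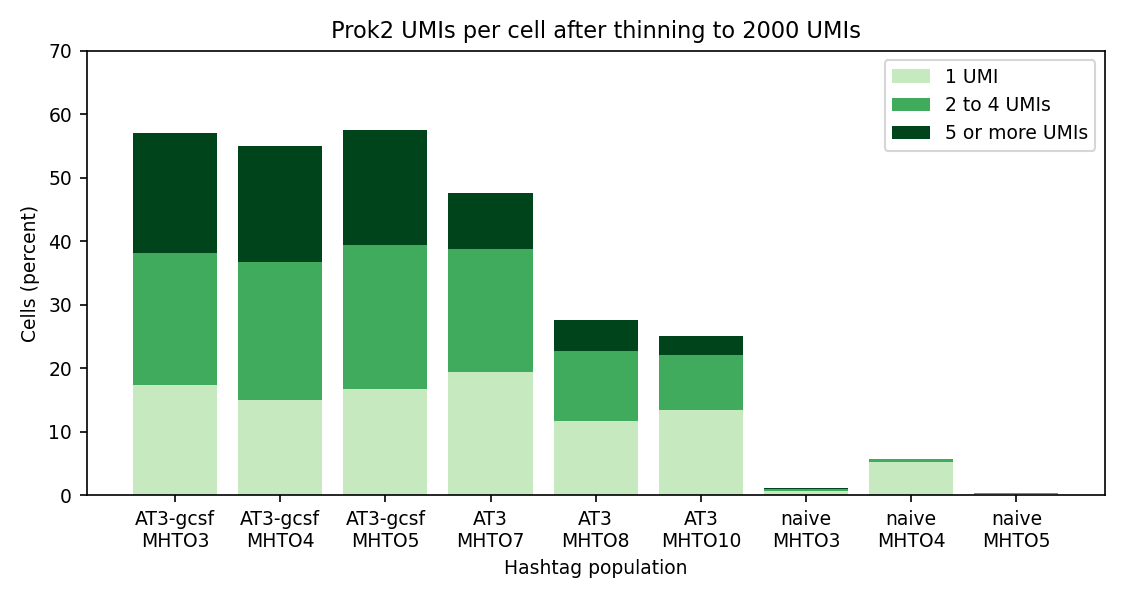
Percent of cells of each hashtag population with 1, with 2 to 4 and with 5 or more Prok2 UMIs after each cell was thinned to 2000 UMIs, stacked. Cells with 5 or more made up between 18.2% and 19% of the AT3-gcsf populations, between 3.10% and 8.81% of the AT3 populations and at most 0.160% of the naive populations.

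Among unthinned positive cells the mean count was 18.0 Prok2 UMIs in AT3-gcsf, 8.50 in AT3 and 1.81 in naive. Cells with at least 20 Prok2 UMIs made up 24.1% of AT3-gcsf cells, 5.87% of AT3 cells and 0.0675% of naive cells. The highest count in a single cell was 203, 84 and 34 in the same order. These amounts are not adjusted for depth, which was greatest in AT3-gcsf and least in naive. After thinning, 16.4% of AT3-gcsf cells had 1 Prok2 UMI and 18.5% had 5 or more. Those shares were 14.3% and 5.36% in AT3 and 1.99% and 0.0838% in naive. The highest thinned count was 26 in AT3-gcsf, 22 in AT3 and 16 in naive. In unthinned cells the share of Prok2 held by the 10% of cells with most of it differed between the tumour populations. These cells held between 45.3% and 47.3% of the Prok2 UMIs in AT3-gcsf populations. In AT3 they held 44.8% in MHTO7, 72.3% in MHTO8 and 80.8% in MHTO10. A smaller set of cells therefore carried most of the transcript in AT3 MHTO8 and MHTO10 than in AT3 MHTO7 or in AT3-gcsf.

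Cells of other types were used to look for Prok2 from outside the cell, such as free RNA. Doublets with a neutrophil of the same tag remain, and they cannot be told apart from free RNA here. Cells with lymphocyte or lung epithelium transcripts and few S100a8 and S100a9 UMIs were rare. In AT3-gcsf, 3 of 8 such cells had Prok2 (37.5%, median depth 4280 UMIs, 43.6 CPM), against 71.6% of the other cells (median 7576, 1456 CPM). In AT3, 2 of 9 had it (22.2%, median 28015, 4.66 CPM), against 45.1% of the other cells (median 4783, 565 CPM). In naive, 0 of 34 had it (upper bound 10.3%, median 4071), against 4.82% of the other cells (median 2774, 22.0 CPM). In CPM, Prok2 was lower in these cells than in the rest of both tumour libraries, and 1 of the 8 AT3-gcsf cells and 0 of the 9 AT3 cells reached 5 Prok2 UMIs. With so few cells of other types, a lone Prok2 UMI in a tumour library cannot be told apart from free RNA.

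The other genes of the prokineticin system were nearly absent from these cells. Prok1, which encodes the related ligand, and Prokr2 had 0 UMIs in all 3 libraries, with exact upper bounds of 0.0409 CPM in AT3-gcsf, 0.0707 in AT3 and 0.124 in naive. Prokr1 had 1 UMI in AT3-gcsf, 4 in AT3 and 3 in naive. Prok2 was thus the only gene of the ligand and receptor set with more than 4 UMIs in a library.

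The genes of G-CSF reception and STAT signalling did not follow Prok2 as a group. Of 20 genes listed, 14 reached 20 CPM in each comparison. Socs3, a feedback inhibitor induced by STAT3, had 446 CPM in AT3-gcsf, 317 in AT3 and 146 in naive. Il4ra, an interleukin receptor chain, had 192 CPM in AT3-gcsf, 146 in AT3 and 66.8 in naive. These 2 were at least 2-fold higher in each tumour library than in naive, and the other 12 measured members were not. By population, Il4ra was at least 110.2 CPM in every tumour population and at most 105 in the naive ones. Socs3 did not separate, with 266 CPM in AT3-gcsf MHTO5 and 124 in AT3 MHTO7 against 301 in naive MHTO5. Csf3r, the G-CSF receptor, ran the other way in the library sums, with 760.3 CPM in AT3-gcsf, 1058 in AT3 and 1468 in naive. Stat3 had 108 CPM in AT3-gcsf, 140.2 in AT3 and 159.7 in naive. This order did not hold in every population, since naive MHTO4 (Csf3r 533 CPM, Stat3 92.5) was below every AT3-gcsf population for both genes. The median log2 ratio of the measured members was -0.48 for AT3-gcsf over naive and -0.23 for AT3 over naive, beside -0.44 and -0.38 over all genes. With TMM factors the log2 ratio of Csf3r was -0.05 for AT3-gcsf over naive and turned to 0.13 for AT3 over naive, and that of Stat3 turned to 0.33 and 0.40 in those comparisons, in place of -0.54 and -0.18. The transcription factor genes Junb and Cebpb then passed 2-fold for AT3-gcsf over naive, at 1.08 and 1.24. Csf3, which encodes G-CSF itself, stood at 1.42 CPM in AT3-gcsf, 6.71 in AT3 and 6.40 in naive cells.

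Other transcripts tied to blood vessel growth also did not move with Prok2 as a group. Of 20 listed genes 11 reached the minimum. Of these 1 was higher by 2-fold or more and 2 were lower for AT3 over naive, and 1 was higher and 3 were lower for AT3-gcsf over naive. Over all genes the shares were 1.74% and 6.53% for AT3 and 4.03% and 21.4% for AT3-gcsf. The median log2 ratio of the 11 was -0.64 for AT3-gcsf over naive and -0.35 for AT3 over naive, beside -0.44 and -0.38 over all genes. Areg, which encodes the growth factor amphiregulin, was at least 2-fold higher in both tumour libraries, at 67.2 CPM in AT3-gcsf and 29.7 in AT3 against 9.61 in naive. Vegfa, the main vascular growth factor, was lower in the library sums, at 13.4 CPM in AT3-gcsf and 21.9 in AT3 against 61.7 in naive. Naive Vegfa lay mostly in MHTO5 (179 CPM). Naive MHTO3 (16.7) and MHTO4 (9.10) lay within the range of the AT3-gcsf populations (6.66 to 19.9) and of the AT3 ones (5.38 to 45.7). Thbs1, which encodes the vessel growth inhibitor thrombospondin 1, was lower too, at 25.2 CPM in AT3-gcsf and 91.8 in AT3 against 1099 in naive. Naive Thbs1 also lay mostly in MHTO5 (3335 CPM), and AT3 MHTO8 (223) was above naive MHTO3 (99.9) and MHTO4 (173). Tnf was at least 2-fold lower in AT3-gcsf alone, at 15.9 CPM against 45.0 in naive, where it lay mostly in MHTO5 (123 CPM). Naive MHTO3 and MHTO4 held 10.2 and 12.7 CPM, within the AT3-gcsf range of 3.63 to 32.9. Mmp9, a gelatinase that frees growth factors from the matrix, had 1199 CPM in AT3-gcsf, 1477 in AT3 and 2054 in naive, a difference of less than 2-fold that turned to log2 ratios of 0.13 and 0.13 over naive with TMM factors. Vegfa and Thbs1 stayed lower with those factors, at -1.09 and -4.35 for AT3-gcsf over naive and -0.77 and -2.92 for AT3 over naive, while Tnf stood at -0.50 in AT3-gcsf over naive and Timp2 at 1.34. Areg lay mostly in AT3-gcsf MHTO5 (163 CPM), AT3 MHTO8 (73.3 CPM) and naive MHTO5 (30.8 CPM), and was at or under 1.79 CPM in the other 6 populations, whereas Prok2 was spread over the populations of each tumour library.

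Within a population, Prok2 varied with the granule transcripts of a cell. Secondary and gelatinase granule proteins are made one after the other as neutrophil precursors mature, so their transcripts place a cell along that course. Cells thinned to 2000 UMIs were placed in bins of their summed secondary granule UMIs (Camp, Ltf, Ngp, Lcn2, Chil3, Cd177, Cybb, Fcnb and Hp), with limits that were the same in every population. In AT3-gcsf MHTO4, Prok2 stood at 197 CPM in cells with 0 to 9 such UMIs, 510.4 with 10 to 19, 1642 with 20 to 49, 2483 with 50 to 99 and 1313 with 100 or more. In AT3 MHTO7 it stood at 129, 432, 1151, 972 and 259 CPM in the same bins. In naive MHTO4 it stood at 13.0, 35.8, 67.7, 44.0 and 17.2 CPM. Prok2 was highest at middle granule content in these populations and lower at both ends.

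AT3-gcsf MHTO3 and MHTO5 peaked in the bin of 50 to 99 UMIs, at 2301 and 2368 CPM, against 259.9 and 302 CPM in the lowest bin and 1984 and 1625 in the highest. For MHTO3 the interval of the peak (2136 to 2476) overlaps that of the highest bin (1744 to 2248), so no fall is shown there. AT3 MHTO8 and MHTO10 peaked there at 1173 and 1400.0 CPM, against 116 and 125 CPM in the lowest bin and 417 and 536 in the highest. The MHTO10 values in the top 2 bins rest on 30 and 28 cells. In naive MHTO3 the bin of 20 to 49 UMIs held 58.0 CPM from 16 Prok2 UMIs, and in naive MHTO5 it held 13.2 CPM from 2. The difference between conditions was present within bins. In cells with 20 to 49 secondary granule UMIs, Prok2 ran from 1600.2 to 1642 CPM over the AT3-gcsf populations, from 743 to 1151 over the AT3 populations and from 13.2 to 67.7 over the naive ones. In the library sums the list was led by Lcn2 and Hp in AT3-gcsf (8778 and 3691 CPM) and by Ngp and Camp in naive (11036 and 9494 CPM). The naive lead came from MHTO4, with 22913 CPM of Ngp and 19847 of Camp. Hp and Lcn2 led in naive MHTO3 (2916 and 1773 CPM) and MHTO5 (1706 and 1052 CPM). Bins with the same limits may therefore hold cells of different stages, and a match of stage between conditions was not tested.

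Gelatinase granule transcripts (Mmp8, Mmp9, Mmp25, Itgam, Slc11a1, Retnlg and Cyba) gave a course without a fall at the top. Most counts of this list came from Retnlg, at 15026 CPM in AT3-gcsf, 16338 in AT3 and 12544 in naive. In AT3-gcsf MHTO4, Prok2 stood at 102 CPM in cells with 0 to 9 such UMIs, 213 with 10 to 19, 776 with 20 to 39, 1761 with 40 to 79 and 1948 with 80 or more. In AT3 MHTO7 it stood at 14.3, 73.2, 256, 700.4 and 1198 CPM in the same bins. In naive MHTO4 it stood at 8.40, 2.69, 4.66, 37.8 and 52.6 CPM. In all 6 tumour populations each step was upward, but the intervals of the bins 0 to 9 and 10 to 19 overlapped in AT3 MHTO7 and MHTO10. In naive MHTO4 the lowest 3 bins rest on 2, 1 and 3 Prok2 UMIs and their intervals overlap.

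**Figure D3:**
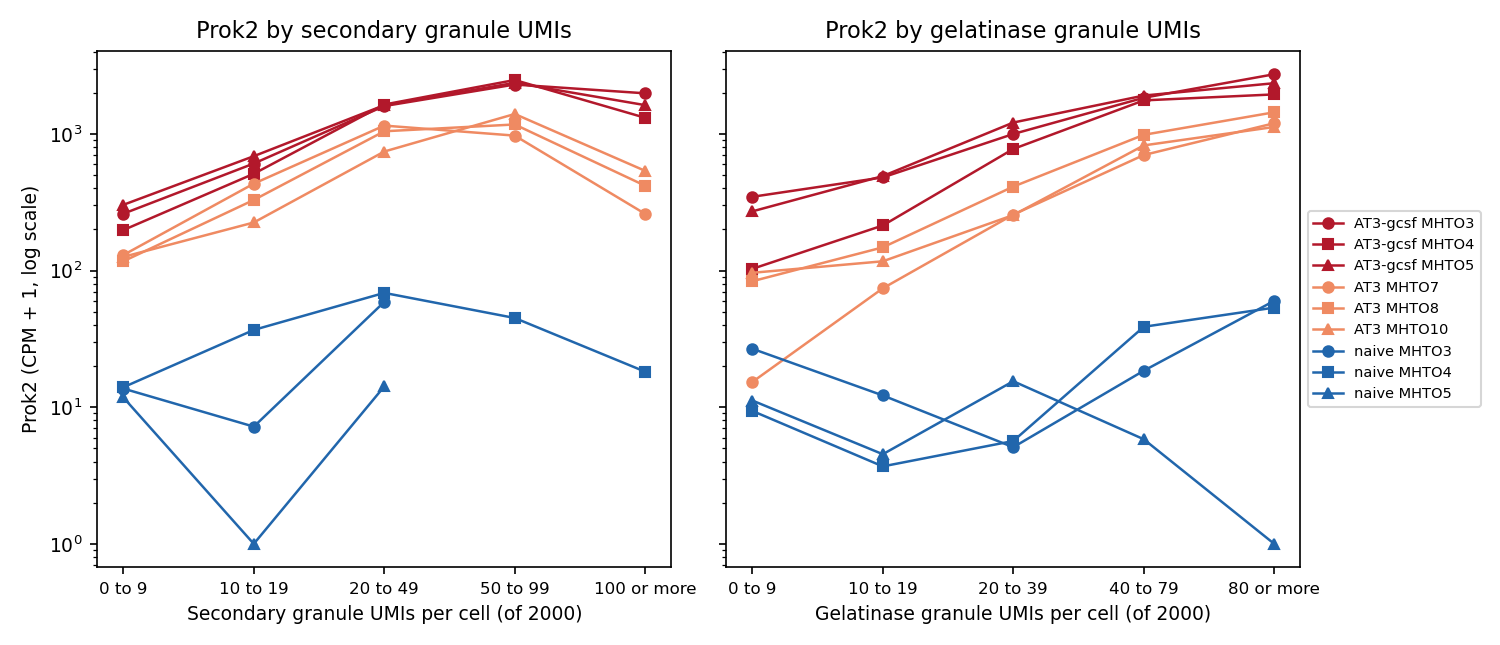
Prok2 level (CPM with 1 added, log axis) by a cell's secondary granule UMIs (left) and gelatinase granule UMIs (right) out of 2000, with 1 line per hashtag population and bins under 20 cells left out. The lines of tumour populations peak at 20 to 99 secondary granule UMIs and climb to the right along gelatinase granule UMIs, from 14.3 to 1198 CPM in AT3 MHTO7, while naive populations stay at or under 67.7 CPM.

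Cells rich in late transcripts held less Prok2 in 5 of the 6 tumour populations. Each population was split into 3 equal groups of cells, low, middle and high, by the summed UMIs of 12 genes of mature neutrophils, such as Csf3r, Cxcr2 and Il1b. From the low to the high group, Prok2 passed through 1819.8, 1079 and 391 CPM in AT3-gcsf MHTO4. In AT3 MHTO8 it passed through 685, 329 and 156 CPM, and in AT3 MHTO10 through 569, 193 and 130.1. AT3 MHTO7, rich in secondary granule transcripts, was highest in its middle group (393, 1121 and 435 CPM). The 9 chemokine and cytokine genes, which include Cxcl2 and Ccl3, gave 1646, 1180.3 and 561 CPM in AT3-gcsf MHTO5 and 680.2, 333 and 156 in AT3 MHTO8. In AT3 MHTO7 the groups held 696, 712 and 543 CPM. Il1b and Cxcl2 had the highest levels of the list in both tumour libraries, at 4259.6 and 2006 CPM in AT3-gcsf and 6437 and 2330.3 in AT3. Of 7 members measured in Prok2-positive and negative cells, Ccrl2 and Il1b were lower in positive cells of all 7 populations with enough cells, as were 40.1% of all genes. Cxcl2 and Ccl4 had median log2 ratios of -0.29 and -0.04, beside -0.31 over all genes.

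Prok2 was also lower in tumour cells with a higher sum of the cell cycle list, which was carried by the broadly expressed chromatin genes Hmgb2 and H2afz. In AT3-gcsf these had 680.5 and 257 CPM, beside 1.24 for Mki67 and 1.75 for Top2a, both markers of dividing cells. The low and high groups stood at 1447 and 730.3 CPM in AT3-gcsf MHTO4 and at 807 and 463 CPM in AT3 MHTO7, and the high group was lowest in each of the 6 tumour populations. These groups differ by few counts, with medians of 1 and 4 cell cycle UMIs in AT3-gcsf MHTO4. The summed hypoxia and glycolysis list, most of whose counts came from Gapdh, Pkm, Aldoa and Ldha, ran the opposite way, with 702, 1176 and 1412 CPM from the low to the high group in AT3-gcsf MHTO4 and 227, 375 and 568 in AT3 MHTO8, and an upward order in each of the 6 tumour populations. In naive MHTO4 those groups held 34.2, 30.4 and 32.7 CPM with overlapping intervals. The members of the list did not all share this order. Of 11 measured in the 7 populations with enough Prok2-positive and Prok2-negative cells, Pgk1 and Pkm were higher in positive cells of all 7, Bnip3 and Hk2 were lower in all 7, and Hilpda had a median log2 ratio of -0.41. Over all genes 3.36% were higher in all 7 and 40.1% lower, with a median of -0.31.

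Genes that went with Prok2 across cells were sought by comparing Prok2-positive with Prok2-negative thinned cells inside each population. The 6 tumour populations and naive MHTO4 had at least 50 cells of each kind, while naive MHTO3 and MHTO5 had 21 and 9 positive cells. Of 3632 genes at or above 20 CPM, 122 (3.36%) were higher in positive cells in all 7 populations and 1458 (40.1%) were lower in all 7. The median log2 ratio over all genes was -0.31, so the ratios stand on a scale whose centre is below 0. Before thinning, positive cells were deeper in the tumour populations, with medians of 10548 UMIs in positive and 4898 in negative cells of AT3-gcsf MHTO4, and shallower in naive MHTO4, with 5138 in positive and 5819 in negative cells. The part of depth in the ratios was not tested beyond thinning.

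Of the 10 named genes higher in positive cells, Cd177 and Mmp8 belong to the granule lists. Cd177, a surface protein stored in secondary granules, had a median log2 ratio of 1.63 over the 7 populations (0.25 to 2.17). Ggt1, the gamma-glutamyltransferase that breaks down glutathione, had 1.39 (0.73 to 1.89). Ceacam10, an adhesion molecule family member, had 1.30, and Mgst1, a microsomal glutathione transferase, had 1.16. Adpgk, an ADP-dependent glucokinase, had 1.14 but only 0.07 in AT3 MHTO7. Ly6c2, a surface antigen gene, had 1.10 and Mmp8, the neutrophil collagenase, had 1.07. The cysteine protease inhibitor genes Stfa2 and Stfa3 had 1.04 and 0.98. The stefin genes and Ly6c2 have close copies in the mouse genome, and their reads may be split between them.

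Gpr27, an orphan G-protein-coupled receptor gene, had a median log2 ratio of 1.12 and the highest minimum of the 10, with a range from 0.79 to 1.43. It lies 16.2 kb past the 3′ end of Prok2 on the opposite strand (chr6:99692679-99695066). Across libraries it did not follow Prok2, with 10.4 CPM in AT3-gcsf, 34.5 in AT3 and 36.2 in naive. Eif4e3, 44.5 kb past the 3′ end, was also higher in positive cells of all 7 populations, with a median of 0.48, and had 8.72 CPM in AT3-gcsf, 18.1 in AT3 and 23.1 in naive. Foxp1, 189 kb away, was lower in all 7, with a median of -0.56. The antisense gene Gm26748 overlaps the start of Prok2 and had 6.78 CPM in AT3-gcsf, 4.06 in AT3 and 0.337 in naive. The sources used here do not give the strand setting of the counting, so its reads cannot be told apart from those of Prok2. These neighbours were looked at after Gpr27 was seen among the named genes.

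The 10 named genes lower in positive cells had medians between -1.69 and -1.31. Clec4n, which encodes the fungal receptor Dectin-2, had a median log2 ratio of -1.69 (-2.57 to -1.15). Cd74, the invariant chain of MHC class II, had -1.68, and Apoe, a lipid carrier, had -1.53. Pmaip1, which encodes the death-promoting protein Noxa, had -1.54. Gm19951 had -1.58, the G-protein subunit gene Gngt2 -1.49, the adaptor gene Scimp -1.45 and the lectin receptor gene Clec4a3 -1.37. Ptma, which encodes prothymosin alpha, had -1.32, and Snrpg, a splicing factor gene, had -1.31.

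**Figure D4:**
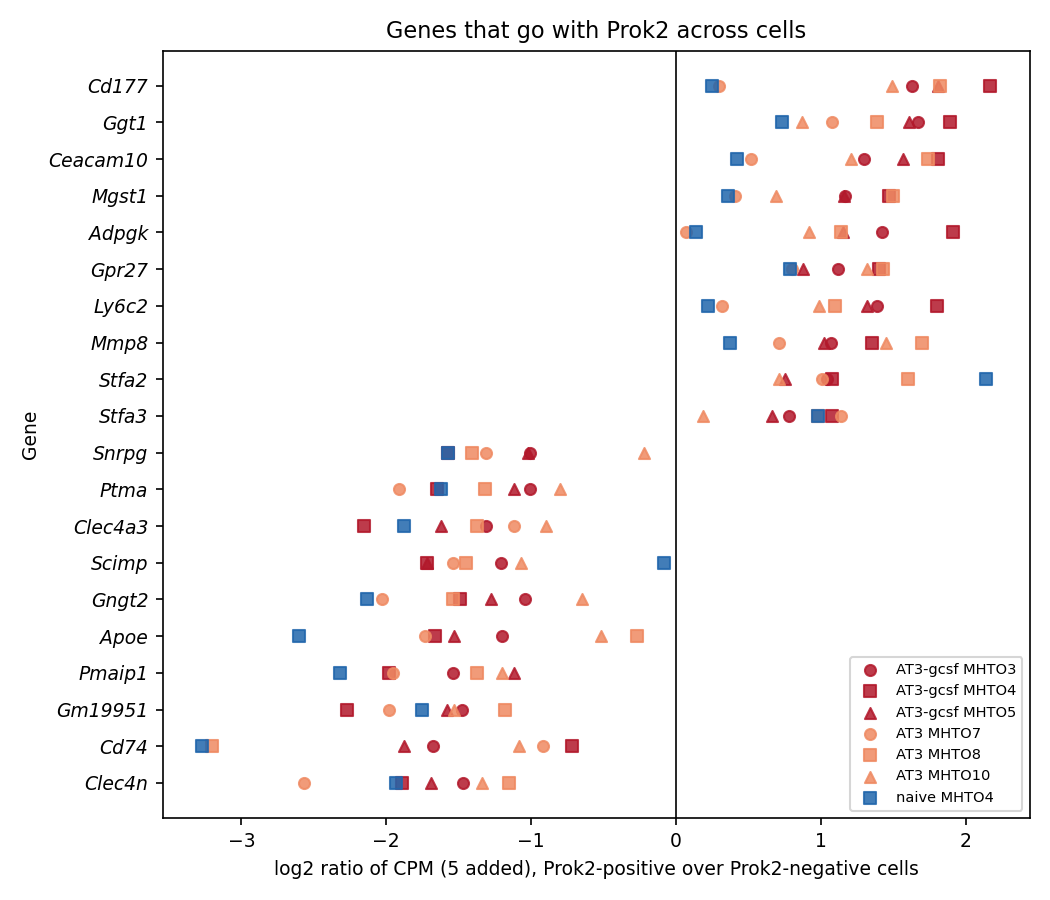
Log2 ratio of CPM (5 added) in Prok2-positive over Prok2-negative cells for the 10 named genes with the highest and the 10 with the lowest median, 1 point for each of the 7 populations with enough cells of both kinds. Every point of the upper 10 genes lies above 0 and every point of the lower 10 below 0, by the rule that chose them, and AT3 MHTO7 and naive MHTO4 lie nearest to 0 for Cd177, at 0.30 and 0.25.

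The granule lists showed the same pattern by member. Of 7 gelatinase granule genes, 5 were higher in positive cells of all 7 populations, namely Mmp8, Mmp9, Mmp25, Itgam and Retnlg, and Cyba was lower in all 7; over all genes 3.36% were higher in all 7. Of 8 measured secondary granule genes, Cd177 alone was higher in all 7. Camp, Ltf, Ngp, Chil3 and Cybb were higher in positive cells of 5 populations and lower in AT3 MHTO7 and naive MHTO4, where Ngp had -0.89 and -0.81. Lcn2 was higher in the same 5 populations, with no difference in AT3 MHTO7 (-0.00) and -0.23 in naive MHTO4. These 2 populations held far more Ngp, at 18335 and 22913 CPM, than the other 7, where it was at most 4219.

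Most measured genes of G-CSF reception were lower in the Prok2-positive cells. Of 14 measured members, 9 were lower in all 7 populations, as were 40.1% of all genes, and 0 were higher in all 7. Csf3r had a median log2 ratio of -0.51 (-0.78 to -0.41), Socs3 -0.57 (-0.84 to -0.17) and Stat3 -0.26 (-0.40 to -0.09). The median of the measured members was -0.40, close to the -0.31 of all genes. Of the vessel growth list, Mmp8, Mmp9 and Timp2 were higher in all 7 populations and Tgfb1 and Il1b lower in all 7. Of the suppressor-associated list, S100a8 and S100a9 were higher in all 7, with medians of 0.55 and 0.44, and Clec4n, Cd274 and Igfbp6 were lower in all 7. Igfbp6, next to Prok2 in its AT3 over naive ratio, was thus lower in the Prok2-positive cells, with a median of -0.67. Nos2, the inducible nitric oxide synthase, had a median of 0.91 and was higher in each of the 6 tumour populations.

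Across populations, the genes whose levels ran most like Prok2 were found by Pearson correlation of log2(CPM + 5) over the 9 populations, among 5302 genes. Populations of the same library have a lane and depth in common, so these correlations mostly follow the 3 conditions and are given as a description. Ggt1 was closest (r = 0.986), with 184, 196 and 183 CPM in AT3-gcsf MHTO3, MHTO4 and MHTO5. It had 80, 49.0 and 43.9 CPM in AT3 MHTO7, MHTO8 and MHTO10, against 2.37 in naive MHTO3, 5.43 in MHTO4 and 1.02 in MHTO5. The order of the 9 populations was the same for Ggt1 as for Prok2. Over the 6 tumour populations alone its r was 0.993, and it was the single gene named by both searches, over populations and across cells.

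Tspo, a protein of the mitochondrial outer membrane, followed at 0.982. Smpdl3a, a phosphodiesterase related to acid sphingomyelinase, stood at 0.981 and Mbd2, a reader of methylated DNA, at 0.969. Lipg, which encodes endothelial lipase, stood at 0.962 and the small GTPase gene Rab24 at 0.961. Qsox1, a secreted sulfhydryl oxidase, Cdc25b, a phosphatase of the cell cycle, Chil1, a chitinase-like protein, and Gyg, the primer of glycogen synthesis, stood between 0.958 and 0.951. Over the 6 tumour populations alone the r of these 9 genes ran from 0.470 for Cdc25b to 0.939 for Lipg.

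The few naive cells rich in Prok2 were unlike one another. In naive mice 15 of 7406 cells had at least 5 Prok2 UMIs, a limit set after the data were seen, and they held 31.6% of the library's Prok2 UMIs. None of their barcodes occurred in a tumour library, and the lowest share of their leading tag was 97.8%. In naive MHTO3, 8 cells held 145 of 173 Prok2 UMIs, with 34, 26, 23, 20, 17, 11, 8 and 6 each. In 7 of them Wfdc17 had between 71 and 413 UMIs. The 8 together had 16989 CPM of Wfdc17, against 1078 in naive MHTO3 cells without Prok2, and the Stfa2 UMIs of the 8 lay mostly in 2 cells, with 176 and 90. Summed over all cells used, Wfdc17 stood at 25569.7 CPM in AT3-gcsf and 10289 in AT3. Single naive cells without Prok2 were not examined for Wfdc17.

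The 4 such cells of naive MHTO4 had 7, 6, 6 and 5 Prok2 UMIs and at most 2 Wfdc17 UMIs. In 3 of them Camp had between 243 and 477 UMIs. Most Prok2 of naive MHTO4 lay instead in single UMIs, in 232 of its 306 positive cells. The 3 such cells of naive MHTO5 had 20, 9 and 5 Prok2 UMIs out of 2711, 2526 and 2574, with only 43, 10 and 84 S100a8 UMIs and 1, 0 and 0 Wfdc17 UMIs. Without these 15 cells the log2 ratio was 4.83 for AT3 over naive and 6.19 for AT3-gcsf over naive.

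**Figure D5:**
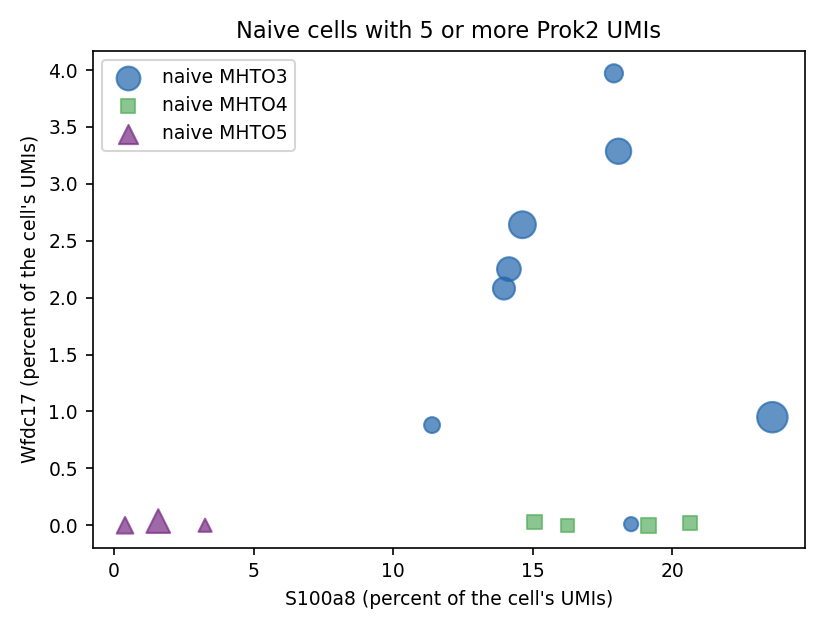
Naive cells with at least 5 Prok2 UMIs, each plotted by S100a8 (x axis) and Wfdc17 (y axis) as percent of the cell's UMIs, with the area of a point growing with its Prok2 UMIs. The Wfdc17-rich cells are 7 of the 8 cells of MHTO3, and the 3 cells of MHTO5 stand at the left with 43, 10 and 84 S100a8 UMIs.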

How the data were processed

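The authors deposited raw UMI counts per gene and barcode, made on mm10 with bcl2fastq 2.20.0.422 and Cell Ranger 4.0.0 per the submitters' processing notes, and raw hashtag counts for which the sources used here give no program. Hashtag files were joined to the libraries they labelled (94.1% to 97.4% of called barcodes, at most 0.672% in any other pairing). Cells whose leading tag held under 80% or under 20 of the named tag counts were left out, which removes doublets of different tags; doublets within a tag remain. UMIs were summed per library and population and scaled to CPM. Log2 ratios had 5 CPM added to both values, over genes reaching 20 CPM in the higher library. Intervals are 95% exact Poisson for CPM and Clopper-Pearson for shares. Cells were thinned to 2000 UMIs without replacement (seed 42).

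Cells of another type had at least 5 UMIs and 1% of UMIs from lymphocyte and lung epithelium markers together and under 10% from S100a8 and S100a9. Named genes were the 10 most correlated over 9 populations, and the 10 highest and 10 lowest by median positive over negative ratio among genes of 1 sign in every eligible population. Members of the fixed lists were named too, and the neighbours of Prok2 were picked after values were seen. Prok2 and all lists were chosen with earlier results of these data known. No p-value was computed, as each condition had 1 library. Python 3.11.15 (numpy 2.4.6, scipy 1.17.1, pandas 2.3.3) and edgeR 4.0.16 in R 4.3.3 were used, edgeR for TMM factors alone, and the comparison and companion steps were tested on simulated data. 1 listed gene is not reported here.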

Additional observations from a re-analysis of the deposited data

How the results depend on the processing

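Prok2 kept its direction in all 3 comparisons under every alternative run. For AT3 over naive (4.41) the log2 ratio was 4.63 with 1 CPM added, 3.80 with 20 CPM added, 4.73 without the 20 most abundant genes in the totals, 4.90 with TMM factors, 5.46 as unscaled UMIs per cell, 4.26 in thinned cells, 4.58 without the 5% of cells with most UMIs and 4.83 without naive cells of at least 5 Prok2 UMIs; leaving out 1 population gave 4.09 to 4.87. For AT3-gcsf over naive (5.77) the same settings gave 6.00, 5.14, 6.10, 6.56, 7.21, 5.63, 5.90 and 6.19, and leaving out 1 population 5.46 to 6.23. For AT3-gcsf over AT3 (1.36) the ratio was 1.34 with 20 CPM added, 1.66 with TMM, 1.74 unscaled, 1.41 as the mean of each cell's CPM, 1.42 with equal weight for populations and 1.32 without the 5% of cells with most UMIs, and 1.29 to 1.51 leaving out 1 population. With TMM the genes at least 2-fold apart numbered 200 higher and 42 lower for AT3 over naive, 766 and 179 for AT3-gcsf over naive, and 134 and 69 for AT3-gcsf over AT3. A minimum of 50 CPM left 160 genes lower for AT3 over naive, 522 lower for AT3-gcsf over naive, and 41 higher and 59 lower for AT3-gcsf over AT3, since fewer genes were tested. The setting without Prok2-rich naive cells was chosen after seeing the data.

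The genes named across cells depended on the setting. With 1000 UMIs per cell 6 of the 10 higher and 7 of the 10 lower genes were named again, and 8 and 10 kept their sign in all populations used. With positive cells set at 2 UMIs 4 and 8 were named again, and 9 and 10 kept their sign over 6 populations. Of the 10 genes named over populations, 2 were named by Spearman correlation and 1, Ggt1, by the 6 tumour populations. No paired analysis was possible because each condition was 1 library and the labels match no populations between libraries. The depth of naive cells limits shares of single UMIs, and the differences between conditions carry no estimate of the spread between mice.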
